A study of Mus musculus with 4 samples.

Results

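The genes described here are the transcription factor p53, its main inhibitors and a set of the genes that it activates. They were taken as a list of 35 mouse genes. Each was looked up by its current or older symbol among the probe sets of the array, those that list several symbols included. Of the 35 genes, 32 had a probe set, and the 32 were measured by 33 of the 23410 probe sets that carry a gene symbol. Trp53 itself, Bax and Gdf15 had no probe set paired with them and are not analysed here. Sfn had 2 probe sets. Cdkn1a was measured by 1 probe set that also lists 4930567H12Rik, a long non-coding RNA, and RefSeq places that RNA on another chromosome than Cdkn1a. Which of the 2 transcripts the probe set measures was not tested, and its values are given under the name of Cdkn1a.

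The cells were Dalton's lymphoma ascites (DLA) cells, a transplantable mouse tumour kept as a suspension in the peritoneal fluid. They had been implanted in male Swiss albino mice of 4 to 5 months. In the irradiated group the mice were given 2 Gy of electrons to the whole body on day 8 after implantation, and RNA was taken from the ascites cells 48 h later. The control group was mice with the same tumour and no exposure. There were 2 one-colour arrays per group, labelled as biological replicates, and the sources used here do not say whether an array stands for 1 mouse or several. They also do not give the p53 genotype of the DLA line. In such bulk RNA, fewer cells of a type and less RNA per cell cannot be told apart.

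The p53 protein is held at a low level by Mdm2, a ubiquitin ligase that sends it for degradation, and by Mdm4, which blocks its activity. Damage to DNA activates the kinases Atm and Chek2, frees p53 from both inhibitors and lets it switch on genes that stop the cell cycle, repair DNA or start cell death. Mdm2 and Ppm1d are themselves targets and close negative feedback loops. Through the cyclin-dependent kinase inhibitor Cdkn1a (p21) and the DREAM complex, active p53 also lowers the genes of mitosis.

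The arrays did not spread equally. Over all 23410 probe sets, which are not independent replicates, the irradiated arrays correlated with r = 0.984 and the SD of their difference was 0.428 on the log2 scale, against r = 0.998 and 0.168 for the control arrays. Of 12 measured T lymphocyte markers 11, and of 9 B lymphocyte markers 9, lay under the array median on all 4 arrays, although the tumour is called a lymphoma. Of 10 pan-leukocyte markers, 6 lay under it on all 4 arrays, Ptprc among them, whereas Lcp1, Arhgdib and Srgn lay above it on all 4. Among markers of other cell types, the 4 adult globin probe sets averaged 6.14 and 6.12 on the irradiated arrays, against 10.1 and 10.2 on the control arrays (mean log2 level). The other 8 erythroid markers had a median difference of −0.06, with 3 higher and 5 lower, 2 of these at a limma unadjusted p under 0.05. The 14 neutrophil markers averaged 6.20 and 6.17 on the irradiated arrays, against 6.46 and 6.59 on the control arrays. At a limma unadjusted p under 0.05, 7 were lower and 2 higher (Ly6g and Mmp9). These markers did not move together. Ly6g measured 12.04 and 11.89 in irradiated cells, against 8.87 and 8.82 in control cells (limma adjusted p = 0.00831). Retnlg, the lowest, measured 5.12 and 4.72 in irradiated cells, against 7.19 and 7.85 in control cells. The 14 macrophage markers averaged 6.33 and 6.19 on the irradiated arrays, against 6.22 and 6.21 on the control arrays. Of these, 2 were lower and 2 higher at a limma unadjusted p under 0.05. The part of these cells in the differences given next was not tested.

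At 48 h the p53 genes lay on both sides of their control levels. Of the 33 probe sets, 16 were higher and 16 lower in irradiated cells and 1 was equal. Their median log2 difference was 0.00, with a range between −0.71 (Plk2) and 0.91 (Trp53inp1), and the median of all probe sets was −0.03. None of the 33 passed an adjusted p under 0.05 in limma, where 0.0256% of all probe sets did, and the smallest adjusted p of a member was 0.449. At a limma unadjusted p under 0.05 there were 7 members (21.2%), against 9.46% of all probe sets. Cdkn1a, Gtse1 and Polk made up the 3 higher ones (9.09%, against 4.82% of all), and Ccng1, Plk2, Xpc and Sesn1 the 4 lower ones (12.1%, against 4.64% of all).

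The count of 7 depended on which arrays entered the fit. It was 0 without control replicate 1 and 0 without control replicate 2, where 1.61% and 1.63% of all probe sets passed. Without irradiated replicate 1 it was 17, where 30.9% passed, and without irradiated replicate 2 it was 14, where 14.9% passed. The groups did not overlap for 16 members. Of these, 7 were higher in irradiated cells (21.2%, against 17.9% of all probe sets) and 9 lower (27.3%, against 23.6% of all), so these shares were near those of the whole array. In the plot of all members by array, the inhibitors of p53 lie close to 0 and the widest rows are those in which the irradiated arrays part from each other.

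**Figure D1:**
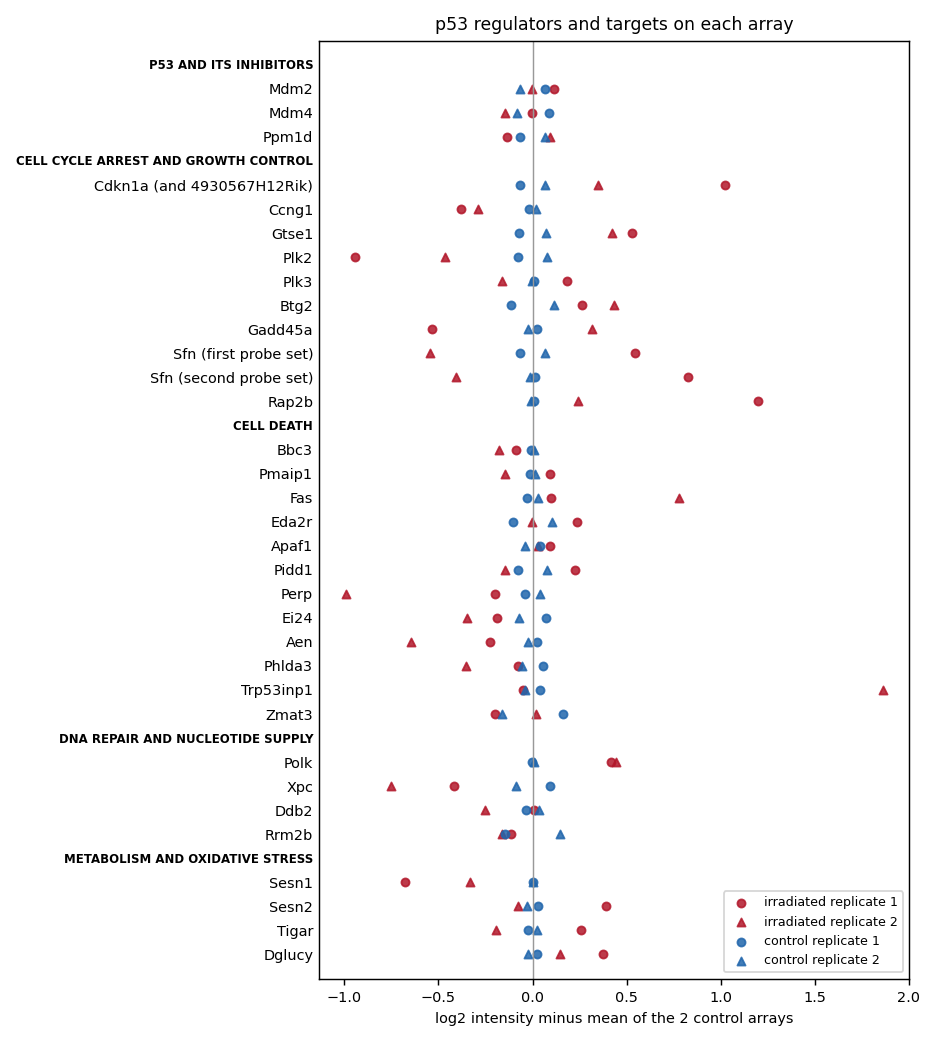
Log2 intensity of each of the 33 member probe sets on each array, minus the mean of the 2 control arrays (x axis, log2 units), by role of the gene. Red marks are irradiated and blue marks control arrays, with circles for replicate 1 and triangles for replicate 2. Members lie on both sides of 0, and Trp53inp1 is 1.86 above the control mean on irradiated replicate 2 and not on replicate 1.

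The inhibitors of p53 differed little. Mdm2 measured 5.80 and 5.68 on the irradiated arrays, against 5.75 and 5.62 on the control arrays (log2 intensity). The groups overlapped, and the log2 difference was 0.06 ± 0.12 (SE) with a 95% interval between −0.25 and 0.36 (limma adjusted p = 0.898). With Bbc3, Pmaip1, Fas and Eda2r, Mdm2 was 1 of 5 members under the array median (6.71 to 6.75) on all 4 arrays. Folds of such dim probe sets are compressed, so a small difference there does not show that the gene was unchanged. Mdm4 measured 8.52 and 8.38 in irradiated cells, against 8.61 and 8.44 in control cells, a difference of −0.08 with an interval between −0.40 and 0.25. Ppm1d encodes the phosphatase Wip1, which removes activating phosphates from p53 and from its kinases. It measured 9.80 and 10.03 in irradiated cells, against 9.87 and 10.00 in control cells, a difference of −0.02 with an interval between −0.37 and 0.33. For all 3 the values of the groups were interleaved.

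Genes of cell cycle arrest went in both directions. Cdkn1a, which encodes the cyclin-dependent kinase inhibitor p21, measured 10.46 and 9.78 on the irradiated arrays, against 9.37 and 9.50 on the control arrays. Both irradiated arrays were above both controls, the first of them by far more than the second. The log2 difference was 0.69 ± 0.24 (SE), which is 1.61-fold, with an interval between 0.07 and 1.30 (limma unadjusted p = 0.0356, adjusted p = 0.504). Without irradiated replicate 1 the difference was 0.35, and without the other irradiated array it was 1.03.

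Ccng1, which encodes cyclin G1, a partner of a phosphatase that acts on Mdm2, lay on the other side. It measured 11.13 and 11.22 in irradiated cells, against 11.49 and 11.53 in control cells. The arrays of each group were close together and the groups did not overlap. Its log2 difference was −0.34 ± 0.11 (SE), or 1.26-fold lower, with an interval between −0.62 and −0.05 (limma unadjusted p = 0.0293, adjusted p = 0.497). Cdkn1a and Ccng1 are both direct p53 targets, and the 2 intervals lie on opposite sides of 0.

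The RefSeq promoter windows (assembly GRCm38.p6, 250 bases before to 50 after a gene's start) were searched on both strands for the p53 consensus half-site. This is the sequence that p53 binds in pairs. Only exact matches to RRRCWWGYYY counted as half-sites here (R is A or G, W is A or T, Y is C or T). Half-sites with a mismatch were not searched for. Windows were found for 28 of the 35 genes, 37 in all. Of these, 14 windows of 13 genes held a half-site (37.8%, against 8.36% of 32851 promoter windows), and the list was drawn up as p53 targets in the first place. A pair of exact half-sites with a spacer of at most 13 bases stood in 1 of them, that of Cdkn1a, and in 0.0731% of all windows. Cdkn1a has another window (chr17:29093519-29093818, plus strand), which holds no half-site. The window of Cdkn1a with the only such exact pair of the list is shown, with the exact half-sites in capitals (chr17:29090729-29091028, plus strand). The bases directly after GAACATGTCT miss the consensus at their first base only and are left in lower case. Which of these stretches p53 binds was not tested.
Cdkn1a: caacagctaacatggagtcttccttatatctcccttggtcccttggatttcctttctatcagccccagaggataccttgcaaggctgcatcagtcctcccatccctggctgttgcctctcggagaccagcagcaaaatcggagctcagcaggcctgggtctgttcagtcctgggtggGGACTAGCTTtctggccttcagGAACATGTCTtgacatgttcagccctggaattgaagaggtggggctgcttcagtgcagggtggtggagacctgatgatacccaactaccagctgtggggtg

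Windows with 1 exact half-site were found, among others, for Ccng1, Gtse1, Polk and Sesn1, which passed the unadjusted threshold. Mdm2 and Ppm1d, which did not pass it, also had such a window. These windows can still hold a pair with a mismatched half-site, which was not searched for. In Ccng1 the bases directly before the half-site miss the consensus at 1 base. In Gtse1 the same holds for a stretch that starts 1 base after the half-site. Gtse1, Polk and Sesn1 each have a further window without a half-site. Aen, Ei24, Gadd45a and Rap2b also hold a half-site, did not pass the threshold and are not shown. Nor are Trp53 and Bax, which hold a half-site and have no probe set. Each half-site shown is in capitals with its flanks on the strand of the gene.
Ccng1 (chr11:40755452-40755481, minus strand): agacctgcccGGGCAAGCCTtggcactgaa
Gtse1 (chr15:85859945-85859974, plus strand): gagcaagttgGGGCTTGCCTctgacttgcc
Polk (chr13:96519399-96519428, minus strand): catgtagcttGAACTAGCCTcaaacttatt
Sesn1 (chr10:41887256-41887285, plus strand): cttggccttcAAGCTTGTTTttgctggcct
Mdm2 (chr10:117710925-117710954, minus strand): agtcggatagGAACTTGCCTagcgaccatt
Ppm1d (chr11:85311112-85311141, plus strand): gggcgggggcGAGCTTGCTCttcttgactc
Among the 11 measured genes with a half-site in a window, 5 were higher and 6 lower in irradiated cells, with a median log2 difference of −0.02. The 14 measured genes with a window but no half-site had 15 probe sets with a median of 0.04, of which 10 were higher, 4 lower and 1 equal. In both sets, members lay on both sides of 0.

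Gtse1 encodes a microtubule-binding protein of G2 and S phase that binds p53 and moves it out of the nucleus. It measured 8.93 and 8.82 in irradiated cells, against 8.33 and 8.47 in control cells. The groups did not overlap, and the log2 difference was 0.48 ± 0.12 (SE), or 1.39-fold higher, with an interval between 0.17 and 0.78 (limma unadjusted p = 0.0106, adjusted p = 0.453). Gtse1 is also a gene of the mitotic programme, whose promoters often carry a CCAAT box and the cell cycle homology region (CHR). One of its 2 windows (chr15:85859457-85859756, plus strand) holds the CHR letters TTTAAA 2 times and the CCAAT box, on either strand, 3 times, which are in capitals.
Gtse1: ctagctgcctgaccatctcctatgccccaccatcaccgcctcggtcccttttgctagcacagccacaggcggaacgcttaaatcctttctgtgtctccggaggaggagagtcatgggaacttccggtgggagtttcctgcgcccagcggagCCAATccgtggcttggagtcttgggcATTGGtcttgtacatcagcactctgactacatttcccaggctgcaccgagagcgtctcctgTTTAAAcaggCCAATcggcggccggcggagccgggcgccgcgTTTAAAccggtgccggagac
TTTAAA reads the same on both strands and was found in 13.2% of all windows, the other CHR form TTTGAA in 17.9% and CCAAT in 37.4%. A window with either CHR form and CCAAT made up 10.7% of all windows and 13.5% of the members' windows.

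Plk2, a polo-like kinase induced by stress, had the lowest difference of the list. It measured 8.18 and 8.66 in irradiated cells, against 9.05 and 9.20 in control cells, so both irradiated arrays were below both controls. The log2 difference was −0.71 ± 0.19 (SE), or 1.63-fold lower, with an interval between −1.19 and −0.22 (limma unadjusted p = 0.0134, adjusted p = 0.462). Its relative Plk3 measured 10.96 and 10.61 in irradiated cells, against 10.78 and 10.77 in control cells, a difference of 0.01 with an interval between −0.38 and 0.40. Btg2, an anti-proliferative adaptor of the mRNA deadenylase, measured 6.85 and 7.02 in irradiated cells, against 6.47 and 6.70 in control cells, a difference of 0.35 with groups that did not overlap (limma unadjusted p = 0.0531, adjusted p = 0.531).

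The remaining genes of growth control had irradiated arrays far apart. Rap2b, a small GTPase of the Ras family, measured 9.31 and 8.35 in irradiated cells, against 8.12 and 8.10 in control cells. Its difference of 0.72 (limma adjusted p = 0.557) was 1.20 without irradiated replicate 2, whereas irradiated replicate 2 alone gave 0.24. Gadd45a, a stress sensor of the growth arrest and DNA damage family, measured 6.43 and 7.28 in irradiated cells, against 6.99 and 6.94 in control cells, so one irradiated array was below and the other above both controls. Sfn encodes 14-3-3 sigma, an epithelial protein that holds cyclin B1 and Cdk1 in the cytoplasm. Its first probe set measured 11.10 and 10.01 in irradiated cells, against 10.49 and 10.62 in control cells, and its second 11.33 and 10.10 in irradiated cells, against 10.52 and 10.49 in control cells. Both probe sets put irradiated replicate 1 above and irradiated replicate 2 below the controls.

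**Figure D2:**
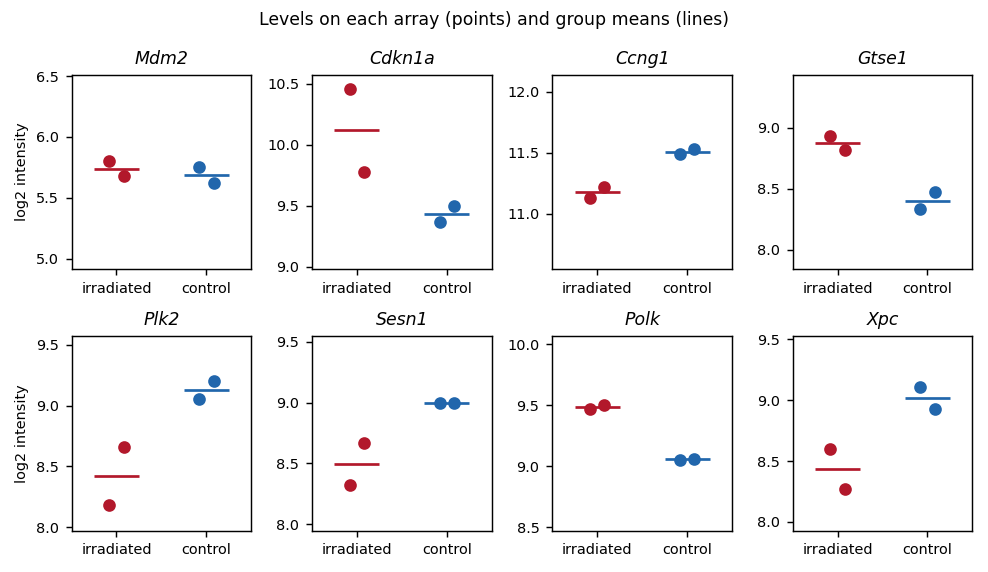
Log2 intensity (y axis, each panel spans the same range) of Mdm2 and the 7 members with an unadjusted p under 0.05, on the 2 irradiated arrays (left, red) and the 2 control arrays (right, blue). Points are arrays and lines are group means. The groups overlap for Mdm2 only, and the irradiated points of Cdkn1a (10.46 and 9.78) and Plk2 (8.18 and 8.66) are the widest apart.

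Genes of cell death held no member at the unadjusted threshold, which 9.46% of all probe sets passed. Of 12 probe sets, 5 were higher and 7 lower, with a median log2 difference of −0.06. Both irradiated arrays were below both controls for 5 (41.7%, against 23.6% of all) and above them for 1 (8.33%, against 17.9% of all). Bbc3 and Pmaip1 encode PUMA and NOXA, small proteins that neutralise the survival proteins of the BCL2 family. Bbc3 measured 6.31 and 6.22 in irradiated cells, against 6.39 and 6.41 in control cells, a difference of −0.14 with an interval between −0.42 and 0.15. Pmaip1 measured 5.85 and 5.61 in irradiated cells, against 5.74 and 5.77 in control cells, a difference of −0.03 with an interval between −0.36 and 0.31. Both intervals ended short of a 1.5-fold difference in either direction, but both probe sets were dim, and folds of dim probe sets are compressed.

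Fas, the death receptor for Fas ligand, measured 5.11 and 5.79 in irradiated cells, against 4.98 and 5.04 in control cells. Both irradiated arrays were above the controls, irradiated replicate 1 by a small step only, and the difference of 0.44 had an interval between −0.17 and 1.05 (limma adjusted p = 0.603). It was 0.78 without irradiated replicate 1. Eda2r, a receptor of the TNF receptor family, differed by 0.12, Apaf1, the core of the apoptosome, by 0.06 and Pidd1, the scaffold that activates caspase 2, by 0.04. For these 3 the groups overlapped.

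Of the death genes below the controls on both irradiated arrays, Aen and Perp had the largest differences. Aen, a nuclease that digests DNA during apoptosis, measured 8.44 and 8.02 in irradiated cells, against 8.69 and 8.64 in control cells, a difference of −0.44 (limma unadjusted p = 0.0501, adjusted p = 0.528). Perp, a tetraspan protein of desmosomes and a p53 effector, measured 8.07 and 7.28 in irradiated cells, against 8.23 and 8.31 in control cells, a difference of −0.60 (limma adjusted p = 0.564) that was −0.99 without irradiated replicate 1. The same arrays had a median difference of −0.13 over 14 markers of simple epithelium and trophoblast. At the unadjusted threshold 3 were lower (Krt7, Krt18 and Epcam) and 2 higher (Cldn4 and Eomes). Like Perp, the 3 lower ones were lowest on irradiated replicate 2. Against the control mean, Krt7 was −0.58 on irradiated replicate 1 and −1.8 on irradiated replicate 2. The list of 14 averaged 9.17 and 8.85 on the irradiated arrays, against 9.24 and 9.23 on the control arrays. Its levels were uneven. Krt8, Krt18, Krt19 and Krt7 lay between the 96.2 and 99.7 percentile of the mean level over all probe sets. In contrast, 4 of the 14 lay under the array median on all 4 arrays. The part of this list in the values of Perp and Sfn was not tested. Ei24, a membrane protein of the endoplasmic reticulum, differed by −0.27 and Phlda3, which holds back the kinase Akt, by −0.22 (limma adjusted p = 0.571 and 0.650). Phlda3 measured 8.28 and 8.00 in irradiated cells, against 8.41 and 8.30 in control cells.

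Trp53inp1 had the widest gap of the list. This nuclear protein, induced by stress and active in autophagy and p53 phosphorylation, measured 9.35 and 11.26 in irradiated cells, against 9.44 and 9.36 in control cells. Irradiated replicate 1 lay close to the controls and irradiated replicate 2 stood apart. The difference of 0.91 had an SE of 0.61 (limma adjusted p = 0.652), and it was 1.86 without irradiated replicate 1. Zmat3, a zinc finger protein that binds RNA and steers splicing, measured 7.46 and 7.68 in irradiated cells, against 7.82 and 7.50 in control cells, and the groups overlapped (difference −0.09).

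The repair genes parted. Polk encodes polymerase kappa, which copies past damaged bases. It measured 9.47 and 9.50 in irradiated cells, against 9.05 and 9.06 in control cells, so the arrays of a group were at most 0.03 apart and the groups did not overlap. Its log2 difference was 0.43 ± 0.11 (SE), or 1.35-fold higher, with an interval between 0.15 and 0.71 (limma unadjusted p = 0.00998, adjusted p = 0.449). Over the alternative settings the difference ran between 0.42 and 0.46.

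Xpc encodes the protein that finds bulky damage at the start of nucleotide excision repair. It measured 8.60 and 8.27 in irradiated cells, against 9.11 and 8.93 in control cells, with both irradiated arrays below both controls. The difference was −0.59 ± 0.16 (SE), or 1.5-fold lower, with an interval between −0.99 and −0.18 (limma unadjusted p = 0.0138, adjusted p = 0.467). Ddb2, which hands ultraviolet lesions to Xpc, differed by −0.13 and Rrm2b, the p53-inducible subunit of ribonucleotide reductase, by −0.14, both with overlapping groups (limma adjusted p = 0.769 and 0.750).

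The genes of metabolism and oxidative stress held the last member at the unadjusted threshold. Sesn1, a sestrin that restrains the growth kinase mTORC1, measured 8.32 and 8.67 in irradiated cells, against 9.0 on both control arrays. Both irradiated arrays were below the controls. The difference was −0.51 ± 0.15 (SE), or 1.42-fold lower, with an interval between −0.90 and −0.11 (limma unadjusted p = 0.0209, adjusted p = 0.496). Its relative Sesn2 measured 8.48 and 8.01 in irradiated cells, against 8.12 and 8.06 in control cells, a difference of 0.16 with overlapping groups. Tigar, a phosphatase that slows glycolysis, differed by 0.03, and Dglucy, a mitochondrial D-glutamate cyclase, by 0.26 with both irradiated arrays above the controls (limma adjusted p = 0.967 and 0.583).

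**Figure D3:**
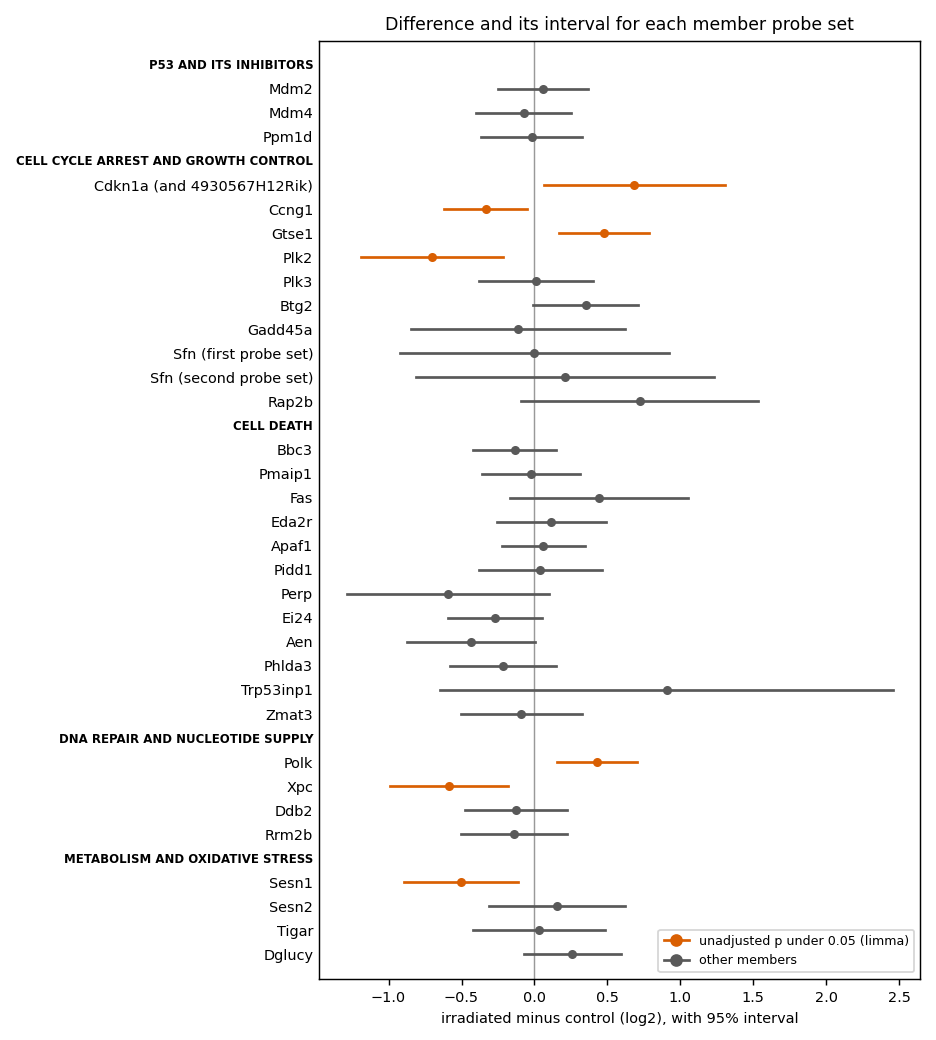
Log2 difference of irradiated minus control (x axis) with its 95% interval from limma for each of the 33 member probe sets, by role of the gene. Orange marks the 7 members with an unadjusted p under 0.05, of which Cdkn1a, Gtse1 and Polk are higher and Ccng1, Plk2, Xpc and Sesn1 lower; the longest interval is that of Trp53inp1, between −0.65 and 2.46.

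The irradiated arrays were more than 0.5 apart on the log2 scale for 8 of the 33 probe sets (24.2%, against 13.1% of all). This limit was set after the values were seen. The control arrays were that far apart for 0 of the 33 and for 260 of all 23410 probe sets. The 8 were Trp53inp1, both probe sets of Sfn, Rap2b, Gadd45a, Perp, Cdkn1a and Fas. Irradiated replicate 1 was the higher one for 23 of the 33, and for 12213 of all 23410 probe sets. The median over the members against the control mean was 0.09 for irradiated replicate 1 and −0.15 for irradiated replicate 2. Over all probe sets these medians were −0.015 and −0.03.

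Other targets of p53 gave a similar mixture. Of 49 further targets, 44 had a probe set, 45 probe sets in all, with 24 higher, 21 lower and a median of 0.03. None passed the adjusted threshold in limma (0.0256% of all did). At an unadjusted p under 0.05, 6 were higher (13.3%, against 4.82% of all) and 2 lower (4.44%, against 4.64% of all). Of the 8, the 6 with the largest differences are given. Lif, a cytokine of the interleukin 6 family, measured 10.32 and 9.54 in irradiated cells, against 8.83 and 8.56 in control cells, a difference of 1.24 (limma adjusted p = 0.443). Steap3, a ferrireductase, differed by 0.47, Tsc2, an inhibitor of mTORC1 signalling, by 0.46, and the receptor Notch1 and the autophagy protein Trp53inp2 by 0.41 each. Thbs1, the matrix protein thrombospondin 1, differed by −0.48.

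Of 29 further regulators of p53, 28 had a probe set, 29 in all, with 18 higher, 11 lower, a median of 0.09 and 0 past the adjusted threshold in limma. At an unadjusted p under 0.05, 3 were higher (10.3%, against 4.82% of all) and 1 lower (3.45%, against 4.64% of all). The higher ones were kinases of the damage checkpoint. Chek2, which phosphorylates p53, measured 8.12 and 8.16 in irradiated cells, against 7.58 and 7.54 in control cells, a difference of 0.58 (limma adjusted p = 0.374). Chek1 differed by 0.55 and Atm, the sensor kinase of double-strand breaks, by 0.41. The lower one was Ppp1r13l, the p53 inhibitor iASPP, at −0.47. Cdkn2a, whose ARF product restrains Mdm2, measured 7.52 and 7.40 in irradiated cells, against 7.33 and 7.31 in control cells (difference 0.14, limma adjusted p = 0.698), and Cdkn2a was named after its values were seen.

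Mitotic genes that p53 lowers through p21 and DREAM were the list with the highest median. Of 26 listed, 25 had a probe set, 30 in all because Cks2 and Hmgb2 had several. All 30 were higher, with a median of 0.45, 21 at an unadjusted p under 0.05 (70.0%, against 4.82% of all) and 0 past the adjusted threshold in limma. Both irradiated arrays were above both controls for 27 (90.0%, against 17.9% of all). The kinase Ttk of the spindle checkpoint measured 9.58 and 9.15 in irradiated cells, against 8.55 and 8.50 in control cells, a difference of 0.84. Foxm1, a transcription factor of mitotic genes, differed by 0.79, the centromere protein Cenpf by 0.77, the kinesin Kif20a by 0.74, cyclin B2 (Ccnb2) by 0.72 and the kinase Plk1 by 0.67 (limma adjusted p between 0.311 and 0.496 for the 6). Leaving out irradiated replicate 1 gave this list a median of 0.29, and leaving out irradiated replicate 2 one of 0.73. The plot of differences by list sets these genes beside the p53 genes. The list was made of genes other than the members, and the part of the globin and neutrophil differences in its shift was not tested.

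**Figure D4:**
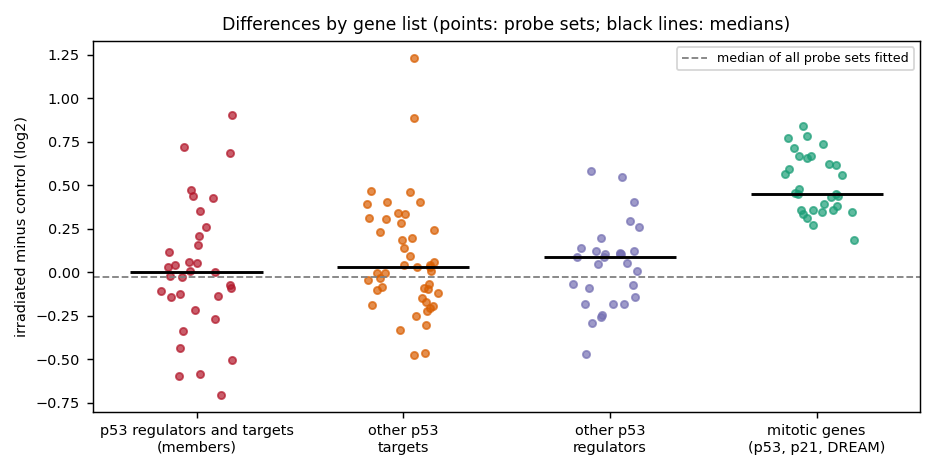
Log2 difference of irradiated minus control (y axis) for each probe set of the p53 genes and of 3 further lists (x axis). Black lines are list medians (0.00, 0.03, 0.09 and 0.45 in this order), the dashed line is the median of all 23410 probe sets, and sideways scatter has no meaning. All 30 mitotic probe sets lie above 0, whereas the other lists lie on both sides.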

How the data were processed

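Total RNA (300 ng) from DLA cells of 2 irradiated and 2 control samples was labelled with biotin and put on one-colour arrays, per the labels' protocols. The authors deposited log2 intensities per probe set made with RMA, per the submitters' processing notes; the sources used here give no version, annotation or build for it. RMA gives the arrays a common distribution, so a shift of most genes cannot be seen, and folds of dim probe sets are compressed. The number of arrays limits the precision.

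Of 35556 probe sets, 21789 listed 1 gene symbol, 1621 several and 12146 none. The 23410 with a symbol, updated through Entrez identifiers in RefSeq (GRCm38.p6, names alone), were compared with limma 3.58.1 in R 4.3.3 (lmFit, eBayes, two-sided; 2 residual and 3.11 prior degrees of freedom), with Benjamini-Hochberg adjustment over all of them. No dim probe set was left out, so all 33 member probe sets entered the fit. The procedure was tested on simulated data with the same spread in both groups. That test does not cover the unequal spread of these arrays. Replicates are separate samples per the labels; p-values measure the spread between them, which may be technical.

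The members, lists and tests were chosen with earlier results of these data known. Values on each array were to be given for a fixed set of members whatever they were, for members at an unadjusted p under 0.05 and for the 6 largest differences; of further lists, at most 6 genes at that threshold with groups that do not overlap were named. Lists were described by counts and medians without a test of their own. Values of other members were added afterwards. The 13 alternative settings changed the probe sets fitted, the normalization, the filter on dim probe sets, the variance model, the replicate block or left out an array.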

Additional observations from a re-analysis of the deposited data

How the results depend on the processing

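No member passed the adjusted threshold under any of the 13 alternatives; the smallest adjusted p ran between 0.113 (without irradiated replicate 1) and 0.998 (without control replicate 1). The count of members at an unadjusted p under 0.05 ran between 6 and 9 in the settings that kept all arrays and between 0 and 17 in those without 1 array, where the lone array of a group is assumed to vary like the other group. With all arrays kept, the share of all probe sets at an unadjusted p under 0.05 in limma moved too. It was 7.67% with every row fitted, where the count was 6. At a count of 9 it was 9.85% (quantile normalization), 12.1% (filter at the 25th percentile) and 15.4% (filter at the median). The filters left 31 and 27 of the 33 members. With the replicate block the count was 7, as without it, whereas the share of all was 7.67%, against 9.46% without it. Same-numbered arrays did not deviate together (r = 0.0042), and Cdkn1a and Ccng1 had p = 0.0509 and 0.0505 in limma with the block. Leaving out 1 array could not reverse the direction of the 7 members, since their groups do not overlap. Of the other settings, only those that changed the normalization altered a difference. That the direction was kept in every setting is therefore no test of the 7 members. None of them had an unadjusted p under 0.05 in limma without control replicate 1 or without control replicate 2. Cdkn1a had a limma unadjusted p of 0.052 with every row of the table fitted and was not fitted with 1 probe set per gene, since its probe set lists 2 symbols.

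The member median ran between −0.02 and 0.025 with all arrays and between −0.145 and 0.09 in fits of 3 arrays. The median of other targets ran between −0.01 and 0.065 in fits of 3 arrays and that of other regulators between −0.02 and 0.09. Sign changes were counted for the members only, not over all probe sets. For 14 of the 33 member probe sets the sign differed between the fits without one and without the other irradiated array. Of these, 3 had an unadjusted p under 0.05 in limma in a fit of 3 arrays with the sign opposite to, or absent from, the fit of all arrays. Without irradiated replicate 1, Gadd45a was 0.315, the first Sfn probe set −0.545 and the second −0.405. With irradiated replicate 2 left out they were −0.535, 0.545 and 0.825; the cause was not tested. In the brighter part of the probe sets (mean of all arrays no lower than the median), 33.3% of 27 members and 15.4% of all had an unadjusted p under 0.05. Aen and Btg2 had one in 8 and 6 of the 13 alternatives.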
